A study of Mus musculus with 12 samples.

Results

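The genes described here encode the factors that start translation, the eukaryotic initiation factors. Members were the array probes whose annotated symbol begins with Eif and a digit from 1 to 6, leaving out the eIF2 kinases, Eif5a, Eif2s3x and Eif2s3y, and whose detection score was above 0.95 on at least 3 of the 12 arrays. This gave 32 genes read by 47 probes, of 7642 named genes and 12023 probes tested in all. The detection score is 1 minus the probability that a probe is at background, so a score above 0.95 is called detected here. All 47 annotated member probes passed it, 31 of them on all 12 arrays. The annotation names only probes that the authors kept after their own filter, so this says nothing of members dropped earlier.

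RNA came from whole hypertrophic zones, the growth plate layer of enlarged chondrocytes, cut from 1 tibia of each mouse at 2 weeks of age, with 3 mice and 3 arrays per genotype on a mixed strain background. ColXN617K mice carry the p.Asn617Lys collagen X allele that models Schmid metaphyseal chondrodysplasia, a dwarfing disease in which mutant collagen X misfolds in the endoplasmic reticulum (ER). Xbp1CartΔEx2 mice lack Xbp1 exon 2 in cells that express the Col2a1-Cre transgene, so Xbp1 is intact in other cells of the tissue. C/X mice carry both changes, and wildtype mice carry neither. Of all probes on an array, 17.1% to 28.4% were detected on the ColXN617K arrays, 17.2% to 24.4% on the C/X arrays, 19.6% to 23.1% on the Xbp1CartΔEx2 arrays and 17.3% to 17.7% on the wildtype arrays, with replicate 3 lowest in both collagen X mutants. Across probes, 2 arrays of 1 genotype correlated at no less than 0.867 in ColXN617K and 0.915 in C/X, both with replicate 3, 0.960 in Xbp1CartΔEx2 and 0.957 in wildtype. Replicate 3 of ColXN617K and of C/X therefore stood apart from the other arrays of their genotype.

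Initiation begins when eIF2 carries the initiator tRNA to the small ribosomal subunit as a GTP complex. eIF2B reloads eIF2 with GTP, eIF3 holds the complex on the small subunit, and the eIF4 factors bring it to the mRNA cap and unwind the leader. eIF4E-binding proteins bind the cap-binding factor eIF4E and hold back this recruitment. Under ER stress the kinase PERK phosphorylates the alpha subunit of eIF2, which then traps eIF2B and slows translation in general while ATF4 mRNA is translated more. The array reports mRNA levels only, not phosphorylation or protein.

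Eif6, Eif2a, Eif2b3 (a catalytic subunit of eIF2B), Eif4ebp1 (an eIF4E-binding protein) and 1 probe of Eif1ad were called higher in each collagen X mutant than in the control with the same Xbp1 state, and the other eIF2B probes in 1 of these comparisons or in neither. A probe was called when its fold difference was 2 or more with an adjusted p (limma, Benjamini-Hochberg over all 12023 probes) of at most 0.01. Between ColXN617K and wildtype 7 of the 47 probes were called higher and 0 lower, where 7.31% of all tested probes were called higher and 7.16% lower. Between C/X and wildtype 6 were called higher and 0 lower, against 6.52% higher and 5.21% lower over all probes. Between C/X and Xbp1CartΔEx2 12 were called higher and 0 lower, against 6.06% higher and 7.6% lower. No member was called between Xbp1CartΔEx2 and wildtype, where 1.17% of all probes were called higher and 0.591% lower. By limma 4 members were higher and 5 lower at an unadjusted p under 0.05, a rule whose share over all probes was not counted. The comparisons with wildtype share the same 3 wildtype arrays. The detection filter let in 7 members only through the collagen X mutants, where a higher signal is therefore partly built in. Of these, Eif1ad ILMN_1237895, Eif2b1 ILMN_2600508 and Eif2b5 ILMN_2715215 were called between C/X and wildtype and between C/X and Xbp1CartΔEx2. Without the 7 probes, 7 calls remained for ColXN617K against wildtype, 3 for C/X against wildtype and 9 for C/X against Xbp1CartΔEx2.

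These counts changed when single arrays were left out. Between ColXN617K and wildtype 3 members were called without ColXN617K replicate 1 or 2 or wildtype replicate 1 or 3, and 4 without wildtype replicate 2. The share of all probes called higher fell too, from 7.31% to 5.17%, 5.63%, 5.17%, 5.27% and 6.20% in the same order. Between C/X and Xbp1CartΔEx2 6 were called without C/X replicate 1 or 2 or Xbp1CartΔEx2 replicate 2 or 3. There the share fell from 6.06% to 3.77%, 4.27%, 4.40% and 3.85% in the same order. Without replicate 3 of both collagen X mutants the counts were 9 for ColXN617K against wildtype, 10 for C/X against wildtype, 15 for C/X against Xbp1CartΔEx2 and 1 for Xbp1CartΔEx2 against wildtype, all higher. The share of all probes called higher was then 16.5%, 12.8%, 10.6% and 3.92% in the same order, so it rose with the members' counts. No omission of a single array removed the calls of Eif2a, Eif2b3 and Eif6 in ColXN617K against wildtype.

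At an adjusted p of at most 0.05 with no fold minimum, the members passing between ColXN617K and wildtype were 17 higher and 1 lower, against 16% and 14.1% of all probes. For C/X and wildtype they were 13 higher and 0 lower, against 14.2% and 11.4%. For C/X and Xbp1CartΔEx2 they were 19 higher and 2 lower, against 13% and 13.3%. Between Xbp1CartΔEx2 and wildtype they were 0 in each direction, against 4.37% and 2.76%. The median log2 fold change of the 47 probes was 0.54 between ColXN617K and wildtype, 0.45 between C/X and wildtype, 0.42 between C/X and Xbp1CartΔEx2 and -0.03 between Xbp1CartΔEx2 and wildtype. The median of all tested probes was 0.00, 0.02, 0.05 and 0.01 in the same order. When arrays were instead only scaled to a common median, this moved the median of all probes to 0.77, 0.40, 0.06 and 0.34, and that of the members to 1.31, 0.90, 0.42 and 0.31. The calls over all probes were then 5.82% higher and 0.798% lower between ColXN617K and wildtype, and 1.94% and 0.599% between C/X and wildtype.

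**Figure D1:**
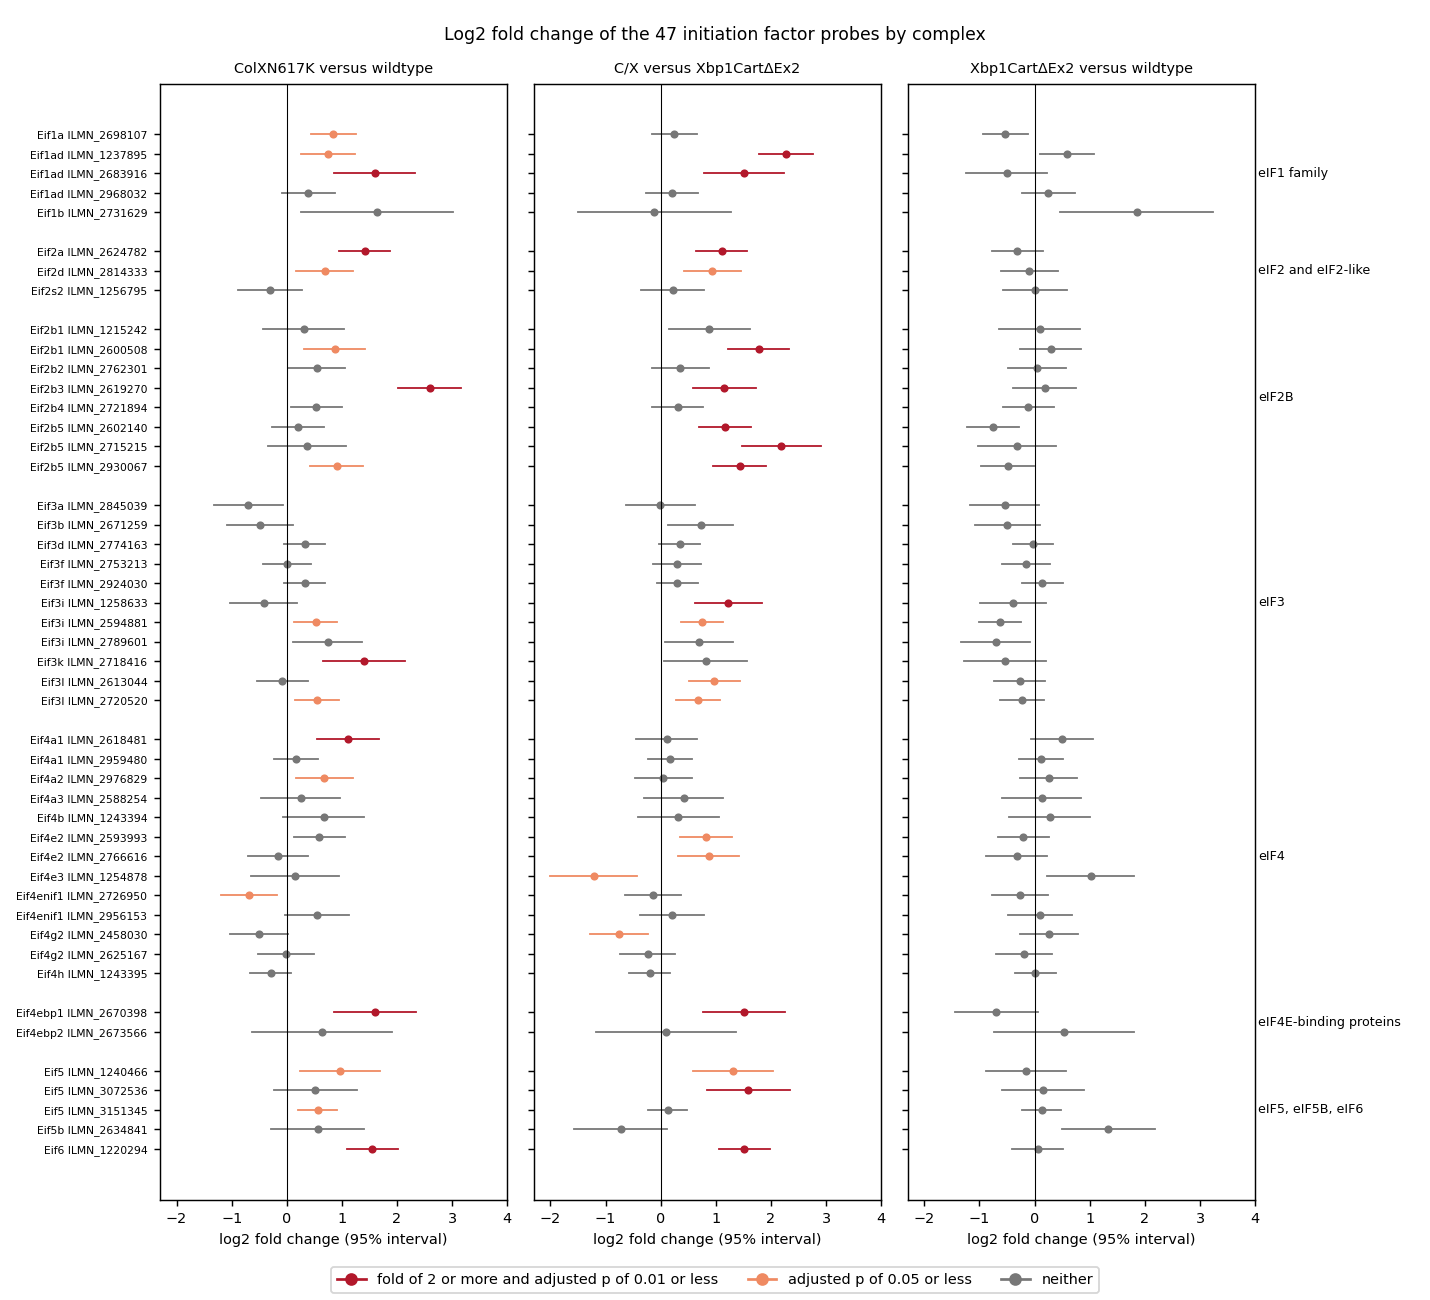
Log2 fold change (x axis, with its 95% interval from limma) of each of the 47 initiation factor probes, grouped by complex, between ColXN617K and wildtype, C/X and Xbp1CartΔEx2, and Xbp1CartΔEx2 and wildtype. Red marks probes called at a fold of 2 and an adjusted p of 0.01, orange those at an adjusted p of 0.05. The red points, 7 on the left and 12 in the middle, all lie above 0, and there are 0 on the right.

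Other properties of the tissue differed between the genotypes, and not only with the collagen X mutation. The summed linear signal of the 12 measured of 14 chondrocyte markers was 80409 to 94645 in ColXN617K, 79937 to 90537 in C/X, 126949 to 150280 in Xbp1CartΔEx2 and 132479 to 137837 in wildtype, and each was detected on at least 1 array of every genotype. These markers did not move together, so their sum does not measure chondrocyte number. From wildtype to ColXN617K the mean log2 intensity of Mmp13 ILMN_2737685 went from 13.95 to 11.59 and that of Alpl from 13.25 to 11.24. Sox9 ILMN_2778151 went from 12.61 to 13.35, Acan ILMN_2645654 from 14.04 to 14.08 and Acan ILMN_2639818 from 12.69 to 11.12. Of the 21 chondrocyte probes 18 had a negative log2 fold change there and 3 a positive one. For the 10 measured of 14 endothelial markers the summed signal was 1316 to 1455, 1464 to 3809, 15555 to 28017 and 6510 to 15785 in the same order, with 4, 3, 1 and 2 of these genes detected on no array. Vwf alone went the other way, with mean log2 intensities of 7.82, 8.37, 6.91 and 6.83, and was called higher between C/X and wildtype. For 4 of 10 erythroid markers the summed signal was 2112 to 7708, 1426 to 2820, 4962 to 6151 and 16057 to 26595. For 7 of 12 osteoclast and macrophage markers it was 6341 to 10704, 8357 to 22562, 32420 to 38521 and 24762 to 35117, and for 6 of 9 osteoblast and bone markers 2819 to 4320, 1943 to 3868, 10969 to 25042 and 5786 to 8851. Without the collagen X mutation, the erythroid sum was lower and the bone sum higher in Xbp1CartΔEx2 than in wildtype. In whole zones, fewer cells of a type and less RNA per cell cannot be told apart. The part of these shifts in the values below was not tested.

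The targeted genes were read once as a check. Col10a1 (ILMN_2675388), which encodes collagen X, had normalized log2 intensities of 8.43, 8.48 and 9.78 in ColXN617K, 9.27, 9.33 and 8.35 in C/X, 12.18, 11.16 and 11.70 in Xbp1CartΔEx2 and 11.75, 12.47 and 11.97 in wildtype. It was lower in ColXN617K than in wildtype by a log2 fold change of -3.17 (adjusted p = 1.35e-04), and an array does not read the N617K change. The Xbp1 probe (ILMN_2431237) read 10.94, 11.18 and 10.19 in C/X, 10.94, 10.82 and 10.96 in Xbp1CartΔEx2, 11.68, 11.87 and 11.25 in ColXN617K and 10.49, 11.03 and 10.67 in wildtype. Its place in the transcript is not given, so it does not check the deletion of exon 2. Xist, which is transcribed from the inactive X chromosome of females, read 5.91, 5.82 and 5.90 in ColXN617K, 11.51, 5.88 and 10.64 in C/X, 6.02, 5.86 and 5.88 in Xbp1CartΔEx2 and 8.90, 5.89 and 9.01 in wildtype (ILMN_1224091). It was high on 2 C/X and 2 wildtype arrays and on none of ColXN617K or Xbp1CartΔEx2, and its part in the results was not tested.

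eIF2B, the exchange factor that reloads eIF2, was measured by 8 probes for all 5 subunits, the regulatory subunits alpha (Eif2b1), beta (Eif2b2) and delta (Eif2b4) and the catalytic pair gamma (Eif2b3) and epsilon (Eif2b5). All 8 had a positive log2 fold change in each collagen X mutant against its Xbp1-matched control, with a median of 0.54 between ColXN617K and wildtype, 1.16 between C/X and Xbp1CartΔEx2 and 0.96 between C/X and wildtype. Called were 1 of the 8 probes between ColXN617K and wildtype, 3 between C/X and wildtype and 5 between C/X and Xbp1CartΔEx2. Over all tested probes 7.31%, 6.52% and 6.06% were called higher in the same order, and 50.1%, 51.0% and 53.9% had a positive log2 fold change. Of the eIF2B probes, Eif2b1 ILMN_2600508 and Eif2b5 ILMN_2715215 passed the detection filter only through the collagen X mutants, and without them 1, 1 and 3 calls remained. Between Xbp1CartΔEx2 and wildtype the eIF2B probes split evenly in sign, 4 above and 4 below 0, with 0 called.

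Eif2b3 (ILMN_2619270) read 10.31, 10.29 and 10.57 in ColXN617K, 9.51, 9.39 and 8.54 in C/X, 7.69, 8.18 and 8.11 in Xbp1CartΔEx2 and 7.99, 7.83 and 7.59 in wildtype. The ColXN617K arrays lay above all C/X arrays, and the C/X arrays above all those of Xbp1CartΔEx2 and wildtype. Its log2 fold change was 2.59 (standard error 0.26, adjusted p = 3.06e-05) between ColXN617K and wildtype, the largest among the members there. It was 1.34 (adjusted p = 0.00291) between C/X and wildtype, 1.16 (adjusted p = 0.00627) between C/X and Xbp1CartΔEx2 and -1.24 (adjusted p = 0.00872) between C/X and ColXN617K. The first call held without any single array, with an adjusted p of at most 2.86e-04. The call between C/X and ColXN617K was lost without each of the 12 arrays in turn, with an adjusted p of up to 0.0264 and log2 fold changes of -1.43 to -0.94, and with replicate number as a block (adjusted p = 0.0111). The calls between C/X and wildtype (4 of 12 omissions, adjusted p up to 0.0183) and between C/X and Xbp1CartΔEx2 (5 of 12, up to 0.0359) were lost without C/X replicate 1 or 2 or single control arrays.

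Eif2b5 had 3 probes, which followed the genotypes to different degrees. ILMN_2715215 read 7.33, 7.29 and 8.58 in ColXN617K, 9.36, 9.29 and 9.04 in C/X, 6.92, 7.31 and 6.90 in Xbp1CartΔEx2 and 7.18, 7.10 and 7.81 in wildtype. It was detected on 3 arrays of each collagen X mutant and on 1 array of each of the other genotypes. Its fitted log2 fold change, against controls mostly at background, was 2.19 (standard error 0.33, adjusted p = 4.44e-04) between C/X and Xbp1CartΔEx2 and 1.87 (adjusted p = 0.00147) between C/X and wildtype, but 0.37 (adjusted p = 0.406) between ColXN617K and wildtype. ILMN_2930067 read 9.62, 9.82 and 10.31 in ColXN617K, 10.19, 10.00 and 9.67 in C/X, 8.69, 8.48 and 8.39 in Xbp1CartΔEx2 and 8.95, 9.12 and 8.95 in wildtype, so both mutants lay above both controls. Its log2 fold change of 1.43 between C/X and Xbp1CartΔEx2 was called (adjusted p = 5.43e-04), and those of 0.91 and 0.95 for ColXN617K and C/X against wildtype had adjusted p values of 0.00888 and 0.00841 but fell short of a fold of 2. The brightest probe, ILMN_2602140, read 9.86, 10.00 and 10.58 in ColXN617K, 10.50, 10.29 and 10.26 in C/X, 9.38, 9.0 and 9.18 in Xbp1CartΔEx2 and 9.97, 10.08 and 9.79 in wildtype. It was called between C/X and Xbp1CartΔEx2 (log2 fold change 1.16, adjusted p = 0.002), a call lost without C/X replicate 1 or Xbp1CartΔEx2 replicate 2 or 3 (adjusted p up to 0.0129). The Xbp1CartΔEx2 arrays of this probe lay below the wildtype arrays, with a log2 fold change of -0.76 (adjusted p = 0.057), the most negative of the members in that comparison. Eif2b5 was the only one of the 11 member genes with several probes of which every probe was called, and that between C/X and Xbp1CartΔEx2.

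Eif2b1 had 2 probes. ILMN_2600508 read 7.33, 7.30 and 8.17 in ColXN617K, 9.06, 8.85 and 8.50 in C/X, 7.06, 7.24 and 6.78 in Xbp1CartΔEx2 and 6.78, 6.72 and 6.72 in wildtype. It was not well above background on any wildtype array, so the C/X mean was at least 2.23-fold higher, a bound taken against the lowest signal of detected probes on the wildtype arrays. The fitted log2 fold change was 2.06 (adjusted p = 1.33e-04) between C/X and wildtype, 1.78 (adjusted p = 3.28e-04) between C/X and Xbp1CartΔEx2 and 1.20 (adjusted p = 0.00878) between C/X and ColXN617K. That last call was lost in 11 of 12 omissions of a single array, all but that of ColXN617K replicate 3 (adjusted p up to 0.0421), and with replicate number as a block (adjusted p = 0.0137). The brighter probe, ILMN_1215242, read 10.38, 10.27 and 11.81 in ColXN617K, 11.43, 11.28 and 11.75 in C/X, 10.51, 10.72 and 10.59 in Xbp1CartΔEx2 and 10.44, 10.41 and 10.70 in wildtype. ColXN617K replicate 3 stood more than 1 unit above the other ColXN617K arrays here, and no comparison was called, the log2 fold change between C/X and wildtype being 0.97 (adjusted p = 0.0518).

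The other regulatory subunits were called in no comparison. Eif2b2 (ILMN_2762301) read 11.09, 10.86 and 11.66 in ColXN617K, 10.91, 10.82 and 11.46 in C/X, 10.64, 10.85 and 10.63 in Xbp1CartΔEx2 and 10.65, 10.67 and 10.67 in wildtype, with log2 fold changes of 0.54 and 0.40 for ColXN617K and C/X against wildtype. Eif2b4 (ILMN_2721894) read 9.91, 10.14 and 10.49 in ColXN617K, 9.97, 9.84 and 9.71 in C/X, 9.33, 9.78 and 9.48 in Xbp1CartΔEx2 and 9.60, 9.48 and 9.86 in wildtype. The ColXN617K arrays of both genes lay above all wildtype arrays, with adjusted p values of 0.105 and 0.0724.

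**Figure D2:**
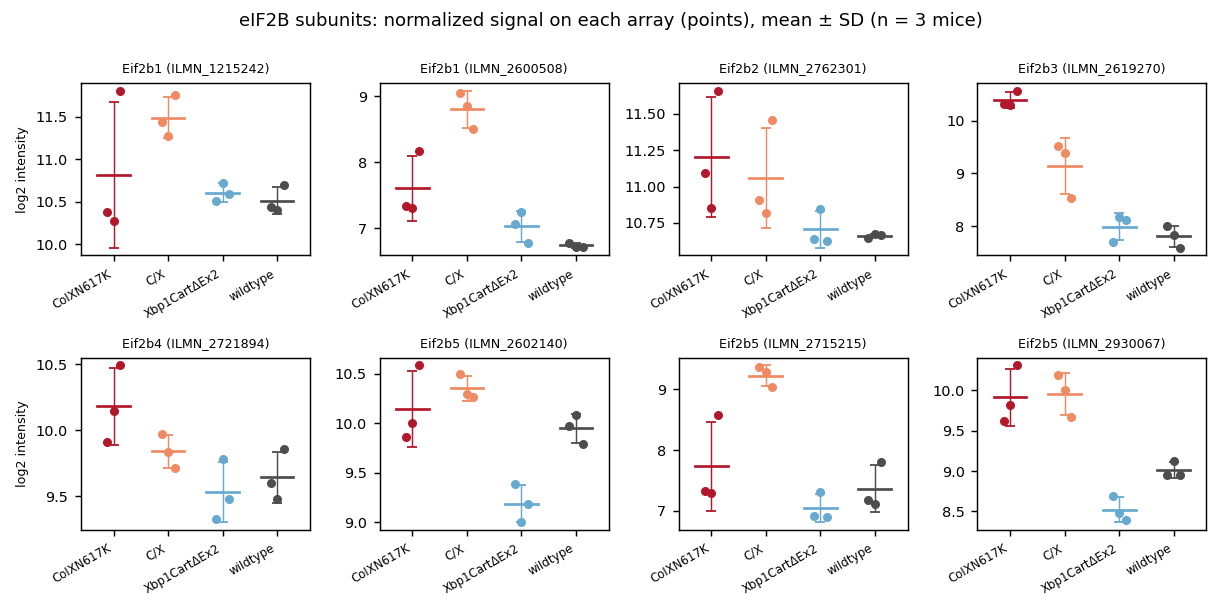
Normalized log2 intensity (y axis, its range set per probe) of the 8 eIF2B probes on each of the 12 arrays, with the mean and SD of 3 mice per genotype. Eif2b3 is highest in ColXN617K (10.31, 10.29 and 10.57), while Eif2b5 ILMN_2715215 and Eif2b1 ILMN_2600508 are highest in C/X (9.36, 9.29 and 9.04, and 9.06, 8.85 and 8.50).

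The eIF2 group held 1 true subunit and 2 factors that can deliver initiator tRNA by other routes. Eif2s2 (ILMN_1256795), the beta subunit of eIF2, read 8.58, 9.12 and 9.73 in ColXN617K, 9.64, 9.59 and 9.79 in C/X, 9.51, 9.49 and 9.37 in Xbp1CartΔEx2 and 9.13, 9.71 and 9.49 in wildtype, and was called in no comparison (log2 fold change -0.31 between ColXN617K and wildtype, adjusted p = 0.398). Eif2a encodes eIF2A, a separate tRNA-binding protein and not the alpha subunit that PERK phosphorylates. Its probe (ILMN_2624782) read 11.90, 12.03 and 11.96 in ColXN617K, 11.23, 11.63 and 11.16 in C/X, 10.29, 9.90 and 10.51 in Xbp1CartΔEx2 and 10.46, 10.75 and 10.45 in wildtype. ColXN617K lay highest, C/X between, and both controls lowest, without overlap between these levels. For Eif2a the log2 fold change was 1.41 (standard error 0.21, adjusted p = 4.09e-04) between ColXN617K and wildtype, a call that held without any single array, and 1.11 (adjusted p = 0.00223) between C/X and Xbp1CartΔEx2, lost without C/X replicate 2 or Xbp1CartΔEx2 replicate 2 (adjusted p up to 0.0131). Between C/X and wildtype it was 0.79 (adjusted p = 0.0167). Eif2d (ILMN_2814333) read 10.78, 10.58 and 11.53 in ColXN617K, 11.20, 10.91 and 11.24 in C/X, 10.15, 10.22 and 10.18 in Xbp1CartΔEx2 and 10.30, 10.35 and 10.18 in wildtype. Its log2 fold changes of 0.69, 0.84 and 0.94, for ColXN617K against wildtype, C/X against wildtype and C/X against Xbp1CartΔEx2, had adjusted p values of 0.0443, 0.021 and 0.0112, and none reached a fold of 2.

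The eIF1 group, whose best known members eIF1 and eIF1A tune scanning and start codon choice, held 5 probes for Eif1a, Eif1ad and Eif1b. Eif1ad encodes a protein with an eIF1A-like domain, and its 3 probes behaved differently. ILMN_1237895 read 7.94, 7.86 and 7.73 in ColXN617K, 10.06, 9.78 and 10.00 in C/X, 7.99, 7.82 and 7.23 in Xbp1CartΔEx2 and 7.36, 6.89 and 7.01 in wildtype. The 3 C/X arrays stood far above all others, and no wildtype array was well above background. The C/X mean was at least 4.94-fold higher than wildtype against the lowest detected signal, and the ColXN617K mean at least 1.15-fold. The fitted log2 fold change was 2.86 (standard error 0.23, adjusted p = 5.34e-06) between C/X and wildtype, 2.27 (adjusted p = 2.74e-05) between C/X and Xbp1CartΔEx2 and 2.11 (adjusted p = 1.98e-04) between C/X and ColXN617K, each the largest of the members, and each held without any single array. ILMN_2683916 read 10.99, 11.30 and 10.41 in ColXN617K, 10.81, 10.69 and 9.43 in C/X, 8.87, 8.84 and 8.69 in Xbp1CartΔEx2 and 9.47, 9.27 and 9.18 in wildtype. It was called between ColXN617K and wildtype (1.59, adjusted p = 0.00392) and between C/X and Xbp1CartΔEx2 (1.51, adjusted p = 0.00557), and each call was lost in 5 of 12 omissions of a single array (adjusted p up to 0.0194 and 0.0316), namely those of replicates 1 and 2 of the mutant and of each array of its control. ILMN_2968032 was called in no comparison, with log2 fold changes of 0.39 and 0.45 for ColXN617K and C/X against wildtype. The files do not say which transcripts the 3 probes read.

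Eif1a (ILMN_2698107) read 10.97, 11.04 and 10.97 in ColXN617K, 9.72, 9.82 and 10.05 in C/X, 9.41, 9.72 and 9.73 in Xbp1CartΔEx2 and 9.91, 10.29 and 10.24 in wildtype. ColXN617K alone lay above the rest. Between C/X and ColXN617K the log2 fold change was -1.13 (adjusted p = 0.00248), a call lost without replicate 1 or 2 of either genotype (adjusted p up to 0.0153), and that between ColXN617K and wildtype was 0.84 (adjusted p = 0.00527), under a fold of 2. Eif1b (ILMN_2731629) read 10.94, 11.07 and 9.39 in ColXN617K, 10.73, 10.90 and 10.08 in C/X, 10.96, 10.37 and 10.72 in Xbp1CartΔEx2 and 7.08, 9.95 and 9.47 in wildtype. Wildtype replicate 1 was lowest, and the log2 fold changes of 1.63, 1.74 and 1.85 for ColXN617K, C/X and Xbp1CartΔEx2 against wildtype were not called (adjusted p = 0.0709, 0.0645 and 0.102).

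The 5′ flanks of 3 genes with a called probe whose mean was highest in C/X are shown because XBP1 and ATF6, which act in the unfolded protein response, are known to bind DNA that carries CCACG, in the ER stress response element together with CCAAT. Each line holds the 250 bases before the RefSeq start (build GRCm38.p6), with capitals at CCAAT or CCACG on either strand.
Eif2b1, chr5:124579132-124579381, minus strand: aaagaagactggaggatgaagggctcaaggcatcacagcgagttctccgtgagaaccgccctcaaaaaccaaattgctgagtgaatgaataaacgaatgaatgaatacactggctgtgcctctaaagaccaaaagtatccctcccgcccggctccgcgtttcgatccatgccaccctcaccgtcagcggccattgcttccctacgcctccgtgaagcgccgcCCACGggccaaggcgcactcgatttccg
Eif2b5, chr16:20498567-20498816, plus strand: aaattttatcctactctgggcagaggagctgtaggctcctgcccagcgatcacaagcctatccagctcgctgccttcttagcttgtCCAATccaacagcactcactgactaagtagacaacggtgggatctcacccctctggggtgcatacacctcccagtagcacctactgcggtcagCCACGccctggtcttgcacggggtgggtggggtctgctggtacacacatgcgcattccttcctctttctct
Eif1ad, chr19:5366563-5366812, plus strand: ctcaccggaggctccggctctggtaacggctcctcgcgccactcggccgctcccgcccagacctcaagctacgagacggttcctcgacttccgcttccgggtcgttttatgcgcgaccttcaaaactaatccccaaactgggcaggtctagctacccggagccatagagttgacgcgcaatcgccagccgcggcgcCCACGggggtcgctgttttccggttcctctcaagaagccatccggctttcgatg
Each flank shown held 1 CCACG, and that of Eif2b5 also 1 CCAAT. The motifs were searched for singly, with no set spacing, so a flank with both is not shown to hold the ER stress response element. Eif5, Eif3i and Eif6, which also had a called probe with its highest mean in C/X, are not shown. For Eif6 the C/X mean of 12.54 was close to the ColXN617K mean of 12.51. No flank was found for Eif3i and Eif6. Eif5 was among the genes with CCACG and not among those with CCAAT. Of 32851 flanks of this length, 28.3% held CCACG and 33.8% CCAAT, on either strand. For 25 of the 32 member genes 30 flanks were found, of which 18 held CCACG and 8 held CCAAT. TGATGNAA, a form of the composite site that C/EBP proteins and ATF4 bind, was in 0 of the 30, against 3.45% of all flanks. These are letter matches only.

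eIF3, the largest factor, was measured by 11 probes for 7 of its subunits. The probes were called once between ColXN617K and wildtype and once between C/X and Xbp1CartΔEx2, where 7.31% and 6.06% of all tested probes were called higher. Their median log2 fold changes were 0.32 and 0.69. Between Xbp1CartΔEx2 and wildtype 10 of the 11 were negative (median -0.40, range -0.70 to 0.14), with 0 called; with arrays scaled by medians 4 were negative and the median was 0.09, where that of all probes was 0.34. Eif3k (ILMN_2718416), a peripheral subunit, read 11.32, 11.29 and 10.75 in ColXN617K, 10.35, 10.48 and 9.17 in C/X, 8.85, 9.62 and 9.09 in Xbp1CartΔEx2 and 9.82, 9.96 and 9.38 in wildtype. ColXN617K lay above all other arrays, with a log2 fold change of 1.40 against wildtype (adjusted p = 0.00916), a call lost in 9 of 12 omissions of a single array (adjusted p up to 0.0422), which spared only ColXN617K replicate 3 and C/X replicates 2 and 3. Eif3i (ILMN_1258633), a subunit with WD repeats, read 9.67, 9.67 and 10.78 in ColXN617K, 11.20, 11.25 and 11.41 in C/X, 9.79, 10.27 and 10.12 in Xbp1CartΔEx2 and 10.43, 10.39 and 10.55 in wildtype. C/X was highest, and ColXN617K replicate 3 lay more than 1 unit above replicates 1 and 2. This Eif3i probe had a log2 fold change of 1.22 (adjusted p = 0.00614) between C/X and Xbp1CartΔEx2, lost in 7 of 12 omissions (adjusted p up to 0.0294), namely those of every C/X and Xbp1CartΔEx2 array and of wildtype replicate 1, and -0.42 (adjusted p = 0.265) between ColXN617K and wildtype. The other Eif3i probes gave 0.52 (ILMN_2594881) and 0.74 (ILMN_2789601) between ColXN617K and wildtype, so the probes of this gene differed in sign. Eif3a (ILMN_2845039), a scaffold subunit, had the lowest log2 fold change of the members against wildtype in both collagen X mutants, with 7.19, 7.16 and 7.91 in ColXN617K, 7.50, 7.23 and 7.96 in C/X, 7.75, 7.54 and 7.44 in Xbp1CartΔEx2 and 8.53, 8.18 and 7.64 in wildtype. Its log2 fold changes of -0.70 and -0.55 for ColXN617K and C/X were not called (adjusted p = 0.0843 and 0.181). Eif3b, Eif3d, Eif3f and Eif3l were called in no comparison, the largest log2 fold change between genotypes among them being 0.97 for Eif3l ILMN_2613044 between C/X and Xbp1CartΔEx2 (adjusted p = 0.00504).

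The eIF4 group held 13 probes for 9 genes, with a median log2 fold change of 0.16 between ColXN617K and wildtype, 0.31 between C/X and wildtype and 0.11 between C/X and Xbp1CartΔEx2. Its only call was Eif4a1 ILMN_2618481, for the helicase that unwinds mRNA leaders, with 12.08, 12.12 and 11.80 in ColXN617K, 11.81, 11.85 and 10.82 in C/X, 11.30, 11.55 and 11.31 in Xbp1CartΔEx2 and 10.97, 10.87 and 10.83 in wildtype. ColXN617K and Xbp1CartΔEx2 each lay above wildtype, while C/X replicate 3 lay at the wildtype level. The log2 fold change between ColXN617K and wildtype was 1.11 (adjusted p = 0.00674), lost in 7 of 12 omissions (adjusted p up to 0.027), namely those of ColXN617K replicates 1 and 2, Xbp1CartΔEx2 replicates 1 and 3 and every wildtype array. The second Eif4a1 probe, ILMN_2959480, gave 0.16 (adjusted p = 0.517). The genes that passed only an adjusted p of 0.05 were Eif4a2, a close relative of Eif4a1, with 0.68 between ColXN617K and wildtype (adjusted p = 0.0484), and both probes of Eif4e2, a cap-binding protein that competes with eIF4E, with 0.82 and 0.87 between C/X and Xbp1CartΔEx2 (adjusted p = 0.0138 and 0.0231).

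At the same threshold 3 eIF4 probes were lower. Eif4enif1 ILMN_2726950, for the eIF4E transporter, had a log2 fold change of -0.69 between ColXN617K and wildtype (adjusted p = 0.0423), while its other probe, ILMN_2956153, gave 0.55 (adjusted p = 0.137). Eif4g2 ILMN_2458030, for an eIF4G-like protein that lacks the eIF4E site, gave -0.75 between C/X and Xbp1CartΔEx2 (adjusted p = 0.0367). Eif4e3 (ILMN_1254878), a divergent cap-binding protein, read 7.10, 7.15 and 6.29 in ColXN617K, 6.29, 6.84 and 6.34 in C/X, 7.02, 8.20 and 7.92 in Xbp1CartΔEx2 and 6.60, 6.20 and 7.29 in wildtype. It was detected on no C/X and no wildtype array and on only 2 Xbp1CartΔEx2 arrays, so no lower bound on its fold is given. The fitted log2 fold change between C/X and Xbp1CartΔEx2 was -1.22 (adjusted p = 0.0269), the lowest among the members there, and is not an exact fold. Eif4a3, Eif4b and Eif4h passed in no comparison, and Eif4b was detected on 2 arrays of each collagen X mutant and on no others.

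Of the eIF4E-binding proteins, Eif4ebp1 and Eif4ebp2 were measured by 1 probe each. Eif4ebp1 (ILMN_2670398) read 12.10, 12.05 and 11.80 in ColXN617K, 11.67, 11.49 and 10.46 in C/X, 9.98, 9.57 and 9.54 in Xbp1CartΔEx2 and 10.56, 10.89 and 9.73 in wildtype. ColXN617K lay above all other arrays and C/X above all Xbp1CartΔEx2 arrays, while C/X replicate 3 overlapped wildtype. For Eif4ebp1 the log2 fold change was 1.60 (standard error 0.34, adjusted p = 0.0044) between ColXN617K and wildtype, 1.51 (adjusted p = 0.00638) between C/X and Xbp1CartΔEx2 and 0.82 (adjusted p = 0.103) between C/X and wildtype. The first call was lost without ColXN617K replicate 1 or 2 or wildtype replicate 1 or 3 (adjusted p up to 0.0211), and the second without C/X replicate 1 or 2, any Xbp1CartΔEx2 array or wildtype replicate 1 (adjusted p up to 0.0354). Eif4ebp2 (ILMN_2673566) read 9.21, 9.34 and 6.94 in ColXN617K, 8.88, 8.06 and 8.55 in C/X, 8.44, 7.52 and 9.24 in Xbp1CartΔEx2 and 7.52, 8.34 and 7.74 in wildtype. Its genotypes overlapped, and the standard error of 0.58 was among the widest of the members (log2 fold change 0.63 between ColXN617K and wildtype, adjusted p = 0.428).

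The remaining factors act at start codon recognition and subunit joining. Eif6 (ILMN_1220294), for a protein that binds the large ribosomal subunit and keeps it from joining early, read 12.49, 12.61 and 12.43 in ColXN617K, 12.85, 12.70 and 12.07 in C/X, 11.15, 10.93 and 10.98 in Xbp1CartΔEx2 and 10.96, 11.02 and 10.91 in wildtype. Every array of both collagen X mutants lay above every array of both controls. Eif6 had log2 fold changes of 1.55 (adjusted p = 2.27e-04) between ColXN617K and wildtype, 1.58 (adjusted p = 2.55e-04) between C/X and wildtype and 1.52 (adjusted p = 2.85e-04) between C/X and Xbp1CartΔEx2, with a standard error of 0.21 each, and all 3 calls held without any single array. It differed by 0.03 between C/X and ColXN617K, with a 95% interval of -0.43 to 0.49. Eif6 and Eif2b3 were the 2 probes called against wildtype in both collagen X mutants.

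Eif5 encodes the protein that triggers GTP hydrolysis by eIF2. Its probe ILMN_3072536 read 8.21, 8.33 and 7.29 in ColXN617K, 9.34, 9.37 and 8.78 in C/X, 7.51, 7.64 and 7.58 in Xbp1CartΔEx2 and 6.83, 8.14 and 7.30 in wildtype, with C/X above all other arrays. Its log2 fold change was 1.74 (adjusted p = 0.00319) between C/X and wildtype and 1.59 (adjusted p = 0.00482) between C/X and Xbp1CartΔEx2. The calls were lost without C/X replicate 1 or 2, and without wildtype replicate 1 or 3 in the first (adjusted p up to 0.0171) or any Xbp1CartΔEx2 array in the second (adjusted p up to 0.0242). The other probes gave 1.14 (ILMN_1240466, adjusted p = 0.0255) and 0.26 (ILMN_3151345, adjusted p = 0.273) between C/X and wildtype. Eif5b, the GTPase of subunit joining, was called in no comparison, and its log2 fold change of 1.34 between Xbp1CartΔEx2 and wildtype (adjusted p = 0.057) was called when ColXN617K replicate 3 was left out of the fit (adjusted p = 0.00786), the fitted value being the same. Eif5b was detected on no wildtype array and on only 2 Xbp1CartΔEx2 arrays, so the fitted value is not an exact fold and no lower bound is given.

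**Figure D3:**
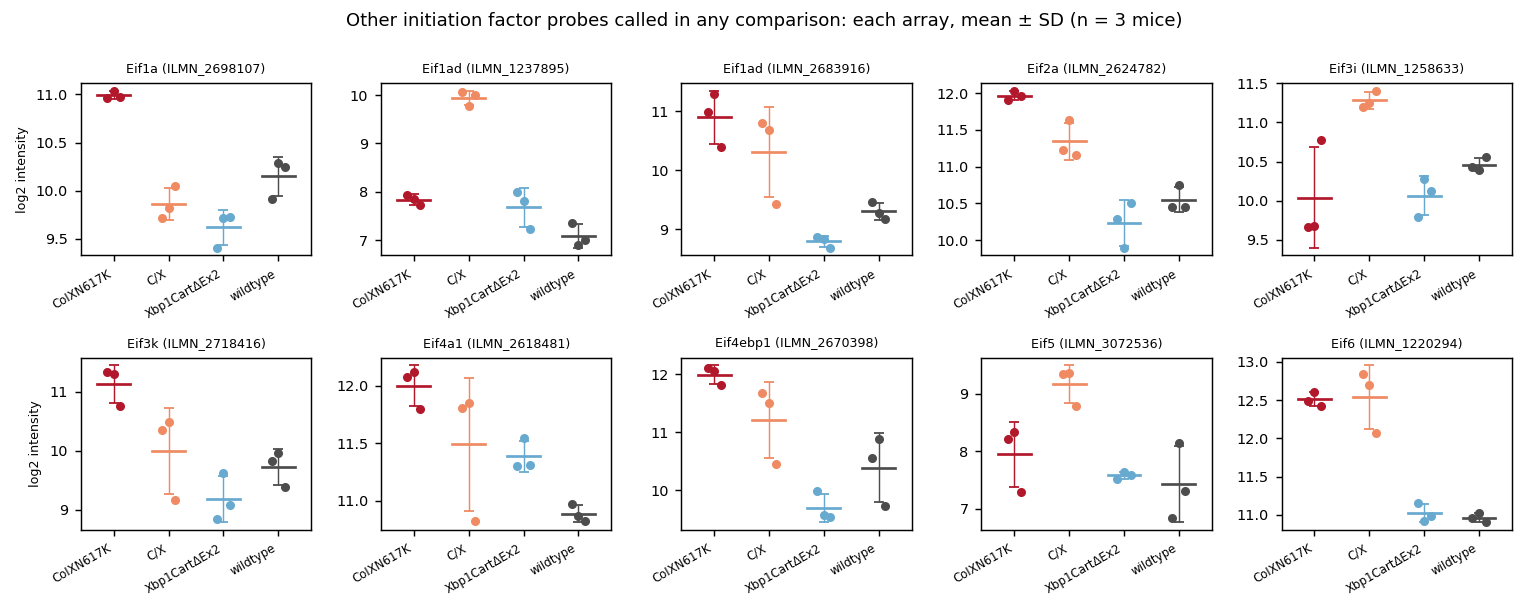
Normalized log2 intensity (y axis, its range set per probe) of the 10 called probes outside eIF2B on each of the 12 arrays, with the mean and SD of 3 mice per genotype. Eif6 is high in both collagen X mutants, Eif1a only in ColXN617K (10.97, 11.04 and 10.97), and Eif1ad ILMN_1237895 only in C/X (10.06, 9.78 and 10.00).

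The effect of the collagen X mutation with Xbp1 intact (ColXN617K against wildtype) and with Xbp1 inactivated (C/X against Xbp1CartΔEx2) rests on different arrays and can be set side by side. The 7 probes called in the first and the 12 in the second shared 5, which is 71.4% of the first and 41.7% of the second. Over all tested probes the 879 called higher in the first and the 729 in the second shared 333, which is 37.9% and 45.7%. The members shared were Eif1ad ILMN_2683916, Eif2a, Eif2b3, Eif4ebp1 and Eif6. Both log2 fold changes were positive at 34 of the 47 probes (72.3%) and at 35.1% of all tested probes. Of the 47, 7 passed the detection filter only through the collagen X mutants, so a positive sign is partly built in for them. They gave 3 of the 12 calls of the second comparison and 0 of the 7 of the first. The test of the difference, the interaction, called 0 members at a fold of 2 and an adjusted p of 0.01 by limma, where 0.957% of all probes were called positive and 0.749% negative. By limma 9 members were positive and 5 negative at an unadjusted p under 0.05, a rule whose share over all probes was not counted. At an adjusted p of 0.05, 3 members were positive and 1 negative, against 3.63% and 3.82%, so the members' count was near that of all probes. Eif2b5 ILMN_2715215 (1.82, adjusted p = 0.0348), Eif3i ILMN_1258633 (1.64, adjusted p = 0.0271) and Eif1ad ILMN_1237895 (1.52, adjusted p = 0.0166) had the larger effect with Xbp1 inactivated, and Eif2b3 (-1.43, adjusted p = 0.0378) with Xbp1 intact. The first 3 were each 1 of 3 probes of their gene, and the others did not pass. Without ColXN617K replicate 3, the strict call was made for 4 members, namely 2 probes of Eif2b5, Eif3i ILMN_1258633 and Eif3l ILMN_2613044, and the share of all probes called was 3.23% positive and 3.59% negative. The most negative interaction was that of Eif1b (-1.75, adjusted p = 0.26), in which wildtype replicate 1 was low.

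Between C/X and ColXN617K, which differ by design in Xbp1, 2 probes were called higher (Eif1ad ILMN_1237895 and Eif2b1 ILMN_2600508) and 2 lower (Eif1a and Eif2b3), against 3.34% and 1.93% of all probes. Sex-linked signal differed as well. Xist ILMN_1224091 read 11.51, 5.88 and 10.64 in C/X and 5.91, 5.82 and 5.90 in ColXN617K. Eif2s3y read 6.67, 9.06 and 6.65 in C/X and 10.21, 10.67 and 9.05 in ColXN617K. The part of this difference was not tested. At an adjusted p of 0.05, 6 were higher and 3 lower, against 7.99% and 7.05%. The median over the members was 0.04, and 0.02 over all probes. With replicate number as a block the calls of Eif2b1 and Eif2b3 were lost and Eif3i ILMN_1258633 was called (log2 fold change 1.25, adjusted p = 0.00802), while those of Eif1ad and Eif1a were kept. Leaving out 1 array gave 1 to 6 calls, 1 without replicate 1 or 2 of either genotype and 6 without ColXN617K replicate 3. The share of all probes called was 1.75% higher and 0.732% lower without ColXN617K replicate 1, and 1.71% and 0.782% without its replicate 2. It was 1.21% and 0.740% without C/X replicate 1, 1.85% and 1.17% without its replicate 2, and 5.24% and 4.65% without ColXN617K replicate 3.

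**Figure D4:**
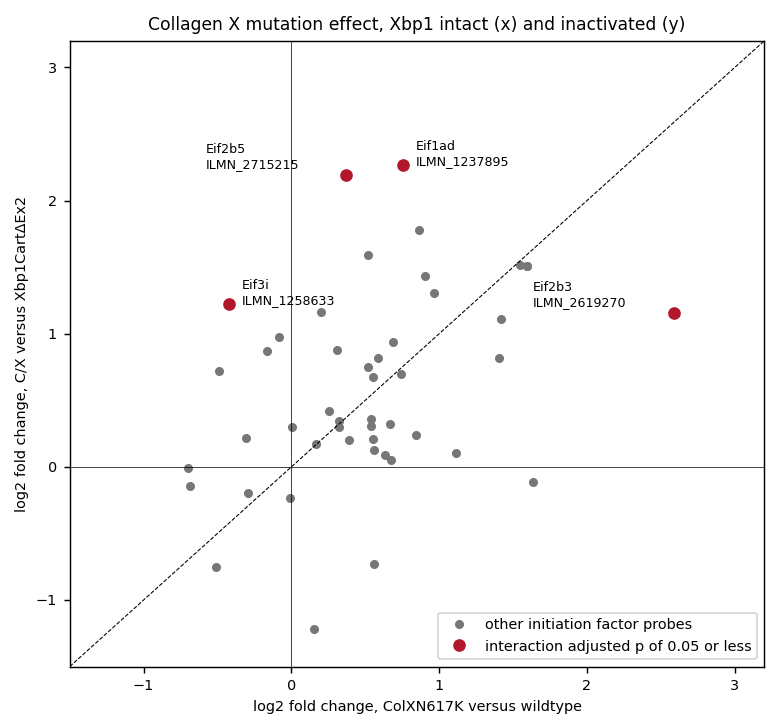
Log2 fold change of each of the 47 probes between ColXN617K and wildtype (x axis) and between C/X and Xbp1CartΔEx2 (y axis), with the dashed line at equal effects. The 4 red points have an interaction adjusted p of 0.05 or less, with Eif2b3 at 2.59 and 1.16 below the line and Eif2b5 ILMN_2715215 at 0.37 and 2.19 above it.

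Several probes of 1 gene often disagreed. Of the 11 genes with several probes, 2 had some but not all probes called between ColXN617K and wildtype, 4 between C/X and wildtype, 4 between C/X and Xbp1CartΔEx2 and 2 between C/X and ColXN617K. Of the probes, 7 were detected on at least 3 of the 6 arrays of the collagen X mutants but on under 3 of the 6 arrays of the other genotypes, and 0 the other way round. These were 2 probes of Eif1ad and 1 each of Eif2b1, Eif2b5, Eif4b, Eif4enif1 and Eif5b. The same split was not counted over all probes, so it is not read as a trait of the members. Of all probes on an array, up to 28.4% were detected in ColXN617K, 24.4% in C/X, 23.1% in Xbp1CartΔEx2 and 17.7% in wildtype.

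Genes near these factors, from lists of known regulators, were read in the same fit. Of the eIF2 kinases and phosphatase subunits only Ppp1r15a, which directs dephosphorylation of eIF2 alpha, was measured of 6 listed. It read 11.65, 11.42 and 10.76 in ColXN617K, 11.47, 11.45 and 11.20 in C/X, 8.50, 8.25 and 8.45 in Xbp1CartΔEx2 and 9.70, 9.88 and 9.41 in wildtype. Its log2 fold change was 1.61 (adjusted p = 3.87e-04) between ColXN617K and wildtype, 1.71 (adjusted p = 3.25e-04) between C/X and wildtype and 2.97 (adjusted p = 7.01e-06) between C/X and Xbp1CartΔEx2. The Xbp1CartΔEx2 arrays lay below all wildtype arrays, with a log2 fold change of -1.26 (adjusted p = 0.0101), and the interaction was 1.36 (adjusted p = 0.0324). The 15 measured of 18 other initiation and cap-binding regulators had 22 probes. Against wildtype, 7.31% of all tested probes were called higher in ColXN617K and 6.52% in C/X. Of the 22 probes, 3 were called higher in each collagen X mutant against wildtype and 0 lower. These were Mknk1 (an eIF4E kinase), Pabpc4 (a poly(A)-binding protein) and Pdcd4 (an eIF4A inhibitor) in ColXN617K, and Mknk1, Pabpc4 and Sesn2 (a restrainer of mTORC1) in C/X, with log2 fold changes of 1.57, 1.19 and 1.95, and 1.68, 1.62 and 2.15. Pabpc4 was called through a different probe in each mutant. Pdcd4 was called through 1 of 3 probes (ILMN_1214782), while ILMN_1253237 was lower in ColXN617K than in wildtype (-0.71, adjusted p = 0.0464) and ILMN_2778122 had -0.06 (adjusted p = 0.829). In C/X against Xbp1CartΔEx2 2 of the 22 were called higher (Pabpc4 and Sesn2) and 0 lower, where 6.06% of all tested probes were called higher. Among 9 of 11 elongation and release factors, Eef1b2 ILMN_1229042 was called lower in ColXN617K (-1.98, adjusted p = 0.00519) and Eif5a ILMN_2678828 higher in C/X against wildtype (2.02, adjusted p = 0.00154) and against Xbp1CartΔEx2 (2.14, adjusted p = 8.86e-04), each by 1 of several probes.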

How the data were processed

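RNA from the hypertrophic zones of 12 mice was amplified and run by the authors on 12 Illumina MouseWG-6 v2 BeadChip arrays. The deposited intensity values cover 45281 probes per array and are not normalized. The deposited detection score is close to 1 for bright probes. The authors also deposited normalized log2 values for 11338 probes, made with limma, per the labels and the study's methods. Here the intensities were corrected and quantile-normalized with neqc (offset 16) of limma 3.58.1 in R 4.3.3 (statmod 1.5.0), which came within 0.0339 of the authors' log2 values. Probes with a score above 0.95 on 3 arrays were kept. The study's removal of probes by annotation quality was not repeated.

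A mean per genotype was fitted (lmFit and eBayes, 8 residual degrees of freedom), and p-values were adjusted by Benjamini-Hochberg within each of 6 comparisons. The fit was tested on simulated data. Symbols came from the platform annotation (9866 of the 12023 tested probes), and all 47 member probes matched a RefSeq gene. Flanks are RefSeq's, from GRCm38.p6. The members and lists were chosen with earlier results of these data known. Values on every array are given for each called probe, for the brightest probe of each eIF2 and eIF2B subunit and eIF4E-binding protein, and for the largest fold in each direction of each comparison. Arrays were grouped by genotype from their titles, and the number of arrays, 3 per genotype, limits precision. Alternatives were the background correction, the normalization, the filter, the authors' values, the moderation, array weights, fewer genotypes in the fit, a replicate block, a looser rule and leaving out each array in turn. Same-numbered arrays of ColXN617K and C/X deviated together (r of 0.366, 0.597 and 0.659), though arrays of other numbers did so at up to 0.511, so the value with replicate number as a block is given where it changes a call between them. The numbers are from the titles, and a shared litter or day is not given in the sources used here. Leaving out ColXN617K replicate 3 and C/X replicate 3 together was chosen after seeing the data.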

Additional observations from a re-analysis of the deposited data

Results flagged for a closer look

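The effect of the collagen X mutation differed with Xbp1 at 4 member probes, by the interaction term in limma at an adjusted p of 0.05. These are 4 of 47 probes, 3 positive and 1 negative, where 3.63% and 3.82% of all tested probes passed in the same directions, so the count is near the background. Each value is the effect with Xbp1 inactivated (C/X against Xbp1CartΔEx2) minus that with Xbp1 intact (ColXN617K against wildtype), on the log2 scale. Eif1ad ILMN_1237895 had 1.52 (standard error 0.32, adjusted p = 0.0166), from effects of 2.27 and 0.75, and passed in 21 of 22 alternatives, the exception being scaling by array medians (adjusted p = 0.372). Eif3i ILMN_1258633 had 1.64 (standard error 0.39, adjusted p = 0.0271), from 1.22 and -0.42, and passed in 10 of 22. Eif2b5 ILMN_2715215 had 1.82 (standard error 0.46, adjusted p = 0.0348), from 2.19 and 0.37, and passed in 10 of 22. Eif2b3 ILMN_2619270 had -1.43 (standard error 0.37, adjusted p = 0.0378), from 1.16 and 2.59, and passed in 13 of 22. Over all of these alternatives the values ranged from 0.94 to 1.69, 0.51 to 2.01, 0.88 to 2.38 and -2.38 to -0.93 in the same order, so none changed sign. Eif1ad, Eif3i and Eif2b5 each passed by 1 of 3 probes. Over the 3 probes of each gene the interaction ran from -0.19 to 1.52, -0.05 to 1.64 and 0.53 to 1.82, so the probes of Eif1ad and of Eif3i differed in sign. The probes of Eif1ad and Eif2b5 passed the detection filter only through the collagen X mutants. At that of Eif1ad no wildtype array was well above background, and at that of Eif2b5 1 Xbp1CartΔEx2 and 1 wildtype array were, so the fitted effects of both rest on controls at or near background and are not exact folds. Xist ILMN_1224091, high on 2 C/X and 2 wildtype arrays and on none of the others, had an interaction of 5.48 (adjusted p = 0.0641), and its part was not tested.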

How the results depend on the processing

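Of the 29 called values named above, 0 changed sign in the 23 alternatives run on each, 510 of 667 values stayed called and 157 did not, and 6 called values stayed in all. Without background correction the counts of called members were 2 for C/X against wildtype, 5 for C/X against Xbp1CartΔEx2 and 1 for C/X against ColXN617K. The share of all probes called was then 3.22% higher and 2.79% lower, 2.80% and 4.18%, and 1.66% and 0.665% in the same order. With scaling by array medians, 2 members were called between C/X and Xbp1CartΔEx2 and 0 between C/X and ColXN617K. Of all probes 1.03% were called higher and 2.30% lower in the first, and 0.0998% and 0.0416% in the second. Without a filter the counts were 3 for ColXN617K against wildtype, 7 for C/X against Xbp1CartΔEx2 and 2 for C/X against ColXN617K. Of the 45281 probes then tested, 1.41% were called higher and 1.32% lower, 1.14% and 1.43%, and 0.530% and 0.316% in the same order. With array weights, whose estimation stopped before its tolerance, the counts were 11 for C/X against wildtype, 2 for Xbp1CartΔEx2 against wildtype, 9 for C/X against ColXN617K and 11 for the interaction. There the share of all probes called was 11.9% higher and 7.79% lower, 5.02% and 2.04%, 6.18% and 5.79%, and 7.49% and 9.62%. With only the compared genotypes in the fit, 1 member was called between C/X and ColXN617K, where 0.324% of all probes were called higher and 0.116% lower. Without the fold minimum, at an adjusted p of 0.05, the counts were 18, 13, 21, 9 and 4 for ColXN617K and C/X against wildtype, C/X against Xbp1CartΔEx2, C/X against ColXN617K and the interaction. Without replicate 3 of ColXN617K and of C/X, 10 were called for C/X against wildtype, 1 for Xbp1CartΔEx2 against wildtype and 5 in the interaction, where 3.87% of all probes were called positive and 4.28% negative. Leaving out each array in turn gave 3 to 7 for ColXN617K against wildtype, 4 to 9 for C/X against wildtype, 6 to 14 for C/X against Xbp1CartΔEx2, 1 to 6 for C/X against ColXN617K, 0 to 1 for Xbp1CartΔEx2 against wildtype and 0 to 4 for the interaction. The share of all probes called higher then ran from 5.17% to 13.8%, 4.06% to 8.75%, 3.77% to 7.66%, 1.21% to 5.24%, 0.341% to 2.69% and 0.241% to 3.23% in the same order. The cause of these changes was not tested. Same-numbered arrays of different genotypes deviated together by more than 0.1 in 7 of 18 pairs (r from -0.327 to 0.659), and in all 3 pairs only for ColXN617K with C/X. With the replicate block the counts were 7, 6, 0, 13, 3 and 0 for ColXN617K, C/X and Xbp1CartΔEx2 against wildtype, C/X against Xbp1CartΔEx2, C/X against ColXN617K and the interaction. The share of all probes called was then 8.37% higher and 7.58% lower, 7.12% and 5.46%, 1.11% and 0.599%, 6.70% and 7.90%, 3.58% and 2.29%, and 0.840% and 0.649% in the same order. Detection limits the dim probes, since 16 of the 47 were not detected on all arrays.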
